A study of Mus musculus with 20 samples.

Results

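The transcription factors of luminal urothelial identity described here are Foxa1, Pparg, Klf5, Grhl2, Grhl3, Elf3, Ehf and Ovol1. They are 8 of the 9 factors on a list of regulators of the luminal cell layers of the bladder, and 8 of the 30142 genes measured with a row of their own. A factor was taken from the row that the platform annotation gives to its symbol alone, and each of the 8 had 1 such row. The only row for the listed factor Gata3 also names 9230102O04Rik, so Gata3 was not analysed here.

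The luminal factors were followed on 20 Affymetrix whole-transcript arrays of tissue from CKO mice on the FVB/N background. Every group shares floxed alleles, that of Rb1 among them, and the loss of p107 (Rbl1), a relative of the retinoblastoma protein. There were 3 bladders of mice given palbociclib, an inhibitor of Cdk4 and Cdk6, at 150 mg/kg each day for 28 days together with CDDP (cisplatin) at 6 mg/kg once a week, called treated bladders here. There were also 4 metastases, 1 sample titled as a palbociclib metastasis, 7 tumour bladders and 5 normal bladders. Tumours were started by an adenovirus carrying Cre recombinase that was put into the bladder, so infection and not a cell type promoter set which cells lost the floxed alleles. The labels give neither the organ a metastasis came from nor the age of the mice. They also do not say that each array came from a separate mouse, so p-values here measure only the spread between these samples, which may be technical.

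The urothelium lines the bladder and matures from basal cells, which carry p63 (Trp63) and keratin 5, to luminal umbrella cells, whose surface is plated with uroplakins. Foxa1 and Gata3 open and hold luminal enhancers, the nuclear receptor Pparg together with its partner Rxr drives umbrella cell genes, and Klf5, Grhl3 and Elf3 act in the same maturation. Grhl2 and Ovol1 keep epithelial junction genes on and repress Zeb1, a repressor that drives loss of epithelial character, and luminal bladder cancers are recognised by high levels of several of these factors.

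Promoter windows of 3 of the factors are given because the factors moved together across 12 of the 20 arrays, as described further on. Across the other 8 arrays they did not. Members of the same families also bind short motifs that can be looked for in such windows. The windows are RefSeq sequence of GRCm38.p6, from 250 bases before to 50 after the start of the gene, and all 3 genes lie on the minus strand. Grhl3 is at chr4:135573583-135573882, Elf3 at chr1:135258423-135258722 and Foxa1 at chr12:57546062-57546361. Each is written 5′ to 3′ along the gene, with capitals on the motif matches found.
Grhl3: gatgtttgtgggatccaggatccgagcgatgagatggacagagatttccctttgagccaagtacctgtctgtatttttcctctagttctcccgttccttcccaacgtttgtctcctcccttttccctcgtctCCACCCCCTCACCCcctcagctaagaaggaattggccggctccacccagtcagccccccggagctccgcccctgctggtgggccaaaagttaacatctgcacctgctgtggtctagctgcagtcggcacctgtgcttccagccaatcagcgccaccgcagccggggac
Elf3: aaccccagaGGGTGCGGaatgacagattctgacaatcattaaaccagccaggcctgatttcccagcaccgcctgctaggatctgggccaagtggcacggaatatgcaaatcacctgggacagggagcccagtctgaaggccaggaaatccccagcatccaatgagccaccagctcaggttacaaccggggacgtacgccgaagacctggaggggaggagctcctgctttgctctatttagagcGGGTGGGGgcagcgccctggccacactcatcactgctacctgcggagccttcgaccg
Foxa1: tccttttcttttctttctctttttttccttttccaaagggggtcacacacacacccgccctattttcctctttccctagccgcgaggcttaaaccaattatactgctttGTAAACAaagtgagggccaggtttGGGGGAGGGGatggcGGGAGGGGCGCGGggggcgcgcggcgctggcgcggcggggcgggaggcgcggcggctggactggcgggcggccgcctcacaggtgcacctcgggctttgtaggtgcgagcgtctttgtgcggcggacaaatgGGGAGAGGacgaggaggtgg
The capitals in Grhl3 mark 2 overlapping matches to CCNCNCCC, a motif of the Klf family, and those in Elf3 mark 2 separate matches to it. Foxa1 holds 5 matches to the Klf motif, some overlapping, and 1 match to the forkhead motif TGTTTAC on the opposite strand, 141 bases before the start. The Klf motif occurred in 49.5% of the 32851 promoter windows searched on both strands and the forkhead motif in 3.65%. The promoter windows of 5 of the 9 listed factors were searched (Foxa1, Gata3, Grhl3, Elf3 and Pparg, the last at 3 starts). None of them held the grainyhead motif AACCGGTT (0.146% of all windows), the ETS motif CCGGAAG (8.86%), the Gata motif AGATAA (11.2%) or the Pparg and Rxr motif in its direct-repeat form (0.0396%). A match is a description of the sequence and no evidence of binding.

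All levels below are log2 expression levels as the authors deposited them. Foxa1 and Ovol1 were dim, at the 1.05th and 3.58th percentile of the genes by mean level and under 5.10, the 40th percentile of all rows, and no detection call comes with the values. The other 6 factors lay above that level, from the 36.2nd percentile for Elf3 to the 83.4th for Ehf. A total of 8 arrays stood apart from the rest by a larger spread in dim rows (SD 0.336 to 0.367) and by a weak correlation of their deviations with those of any other array (at most 0.210). These were metastases 3 and 4, tumour bladders 3, 4 and 5 and normal bladders 4, 5 and 6, and no treated bladder was among them. The set was singled out after its values were seen. On these 8 arrays the mean of the 8 factors kept to a narrow band of 5.44 to 5.59, while on the other 12 it spanned 4.80 to 6.57. Results for the factors are therefore given with and without them.

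Grhl2, the grainyhead factor that maintains epithelial junctions, had the smallest unadjusted p of the 8 factors for metastases against tumour bladders and against normal bladders, as given further on. It stood at 5.34, 5.77, 5.97 and 6.22 in the 4 metastases and 5.67 in the palbo metastasis, with a lowest value of 6.02, a median of 6.26 and a highest value of 7.17 in tumour bladders and 6.41, 6.46, 6.20, 6.22 and 6.50 in normal bladders. Metastases 1, 2 and 3 and the palbo metastasis lay under every tumour and normal bladder, and metastasis 4 lay within the range of both. The 3 treated bladders read 6.19, 6.10 and 7.21, the last of them above every tumour bladder. Grhl3, the grainyhead factor that completes umbrella cell differentiation in the mouse bladder, read 5.09, 5.23, 5.64 and 6.07 in metastases and 5.02 in the palbo metastasis. Its tumour bladders ranged from 5.18 through a median of 5.56 to 7.27, and its normal bladders read 6.11, 6.46, 5.93, 5.98 and 6.16. Treated bladders had Grhl3 at 6.01, 5.74 and 6.79. Most tumour bladders thus lay under the lowest normal bladder for Grhl3, and 2 of them, numbers 1 and 7, did not.

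Elf3 and Ehf are ETS factors restricted to epithelia. Elf3 read 4.63, 4.60, 5.04 and 4.81 in metastases and 4.63 in the palbo metastasis, against 4.82 to 5.95 with a median of 5.20 in tumour bladders and 5.20, 5.36, 5.55, 4.98 and 5.03 in normal bladders. Metastasis 3 was the only metastasis within either bladder range. In treated bladders Elf3 was at 5.12, 5.08 and 5.87. Ehf had the widest spread of the 8 factors. It stood at 5.24, 4.996, 6.32 and 6.34 in metastases and 5.09 in the palbo metastasis, and at 5.21 to 8.51 with a median of 6.34 in tumour bladders. Normal bladders had Ehf at 6.89, 7.37, 6.24, 6.49 and 6.18, and treated bladders at 6.32, 6.31 and 8.50. Metastases 3 and 4, both among the arrays that stood apart, had Ehf within the normal range, while metastases 1 and 2 and the palbo metastasis lay below all normal bladders.

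Pparg, the nuclear receptor, read 6.01, 6.28 and 7.09 in treated bladders, 5.73, 5.25, 6.22 and 5.85 in metastases and 4.95 in the palbo metastasis. Tumour bladders ranged from 5.01 through a median of 6.11 to 7.26, and normal bladders were at 6.86, 6.81, 5.82, 5.99 and 5.75. Normal bladders 1 and 2 thus stood well above normal bladders 4, 5 and 6, which are 3 of the arrays that stood apart. Klf5, a zinc finger factor needed for urothelial maturation in mice, also had its highest normal values there, at 6.54 and 6.67 in normal bladders 1 and 2 against 6.43, 5.88 and 5.78 in normal bladders 4, 5 and 6. It read 6.06, 5.61 and 7.27 in treated bladders, 5.25, 5.33, 5.95 and 5.97 in metastases and 5.20 in the palbo metastasis. The 7 tumour bladders had Klf5 between 5.46 and 7.29 with a median of 5.79. For both factors the groups overlapped.

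Foxa1, a forkhead factor that opens closed chromatin, and Ovol1, a zinc finger repressor of Zeb1, were the dim rows and varied little. Foxa1 read 3.97, 4.12 and 4.72 in treated bladders, 3.58, 3.86, 4.54 and 4.01 in metastases, 3.74 in the palbo metastasis, 3.86 to 4.76 with a median of 4.09 in tumour bladders and 4.28, 4.05, 4.01, 4.19 and 4.29 in normal bladders. Ovol1 read 4.30, 4.36 and 4.63 in treated bladders, 4.13, 4.33, 4.48 and 4.28 in metastases, 4.12 in the palbo metastasis, 4.28 to 4.78 with a median of 4.61 in tumour bladders and 4.43, 4.27, 4.49, 4.15 and 4.13 in normal bladders. Ovol1 was the one factor whose mean in metastases was not under that of normal bladders.

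**Figure D1:**
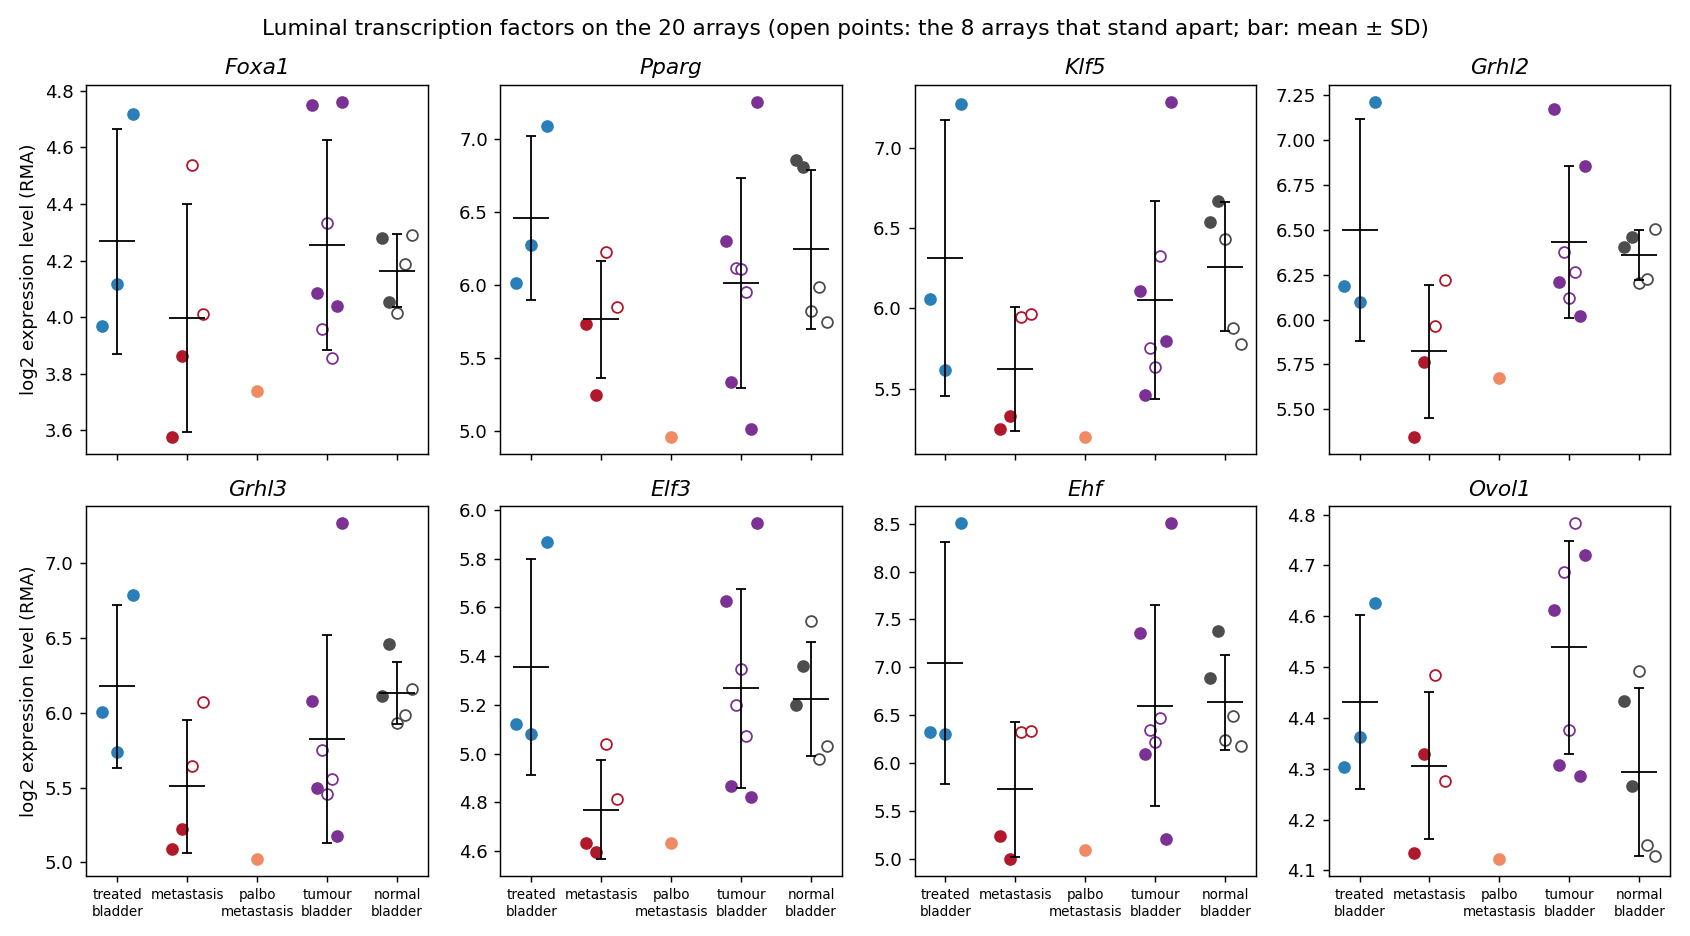
Each panel plots the log2 expression level of 1 factor on the vertical axis for every array of the treated bladders, metastases, palbo metastasis, tumour bladders and normal bladders, with a bar for the mean and an error bar for the SD; the single palbo metastasis has neither. Open points are the 8 arrays that stood apart, which bunch near the middle of most panels, while tumour bladder 7 and treated bladder 3 lie at the top and metastases 1 and 2 and the palbo metastasis at the bottom.

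The 8 factors ordered the arrays in much the same way. Tumour bladder 7 was among the highest 3 of the 20 arrays for 8 of 8 factors and treated bladder 3 for 7, followed by tumour bladder 1 and normal bladder 2 with 3 each. At the other end the palbo metastasis was among the lowest 3 arrays for 8 of 8 factors, metastasis 1 for 6, metastasis 2 for 5 and tumour bladder 6 for 3. By group means, the palbo metastasis was lowest of the 5 groups for each of the 8 factors, treated bladders were highest for 7 (all but Ovol1), and metastases were the second lowest for those same 7. The means of treated, tumour and normal bladders lay within 1 SD of the tumour bladders of each other for 7 factors (all but Ovol1), so their order does not go beyond that spread.

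The comparison of metastases with tumour bladders asks how the factors differ between the spread and the primary disease. All 8 factors had a lower mean in metastases, by 0.23 to 0.88, with a median difference of -0.37 where the median over all genes was -0.03 and 56.1% of all genes had a lower mean. Ehf averaged 5.72 ± 0.71 in metastases and 6.60 ± 1.05 in tumour bladders (SD, n = 4 and 7), a difference of -0.88 with a 95% confidence interval of -1.98 to 0.22. Grhl2 averaged 5.82 ± 0.37 in metastases and 6.43 ± 0.42 in tumour bladders, a difference of -0.61 (interval -1.10 to -0.12). Elf3 averaged 4.77 ± 0.20 in metastases and 5.27 ± 0.41 in tumour bladders, a difference of -0.50 (interval -0.93 to -0.07). The other differences were -0.43 for Klf5, -0.32 for Grhl3, -0.26 for Foxa1, -0.25 for Pparg and -0.23 for Ovol1, each with an interval that holds 0.

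None of the 8 factors passed the test between metastases and tumour bladders, a linear model in limma whose p-values were adjusted by Benjamini and Hochberg's method across all 30142 genes and called at 0.05. Their adjusted p-values were 0.841 for Grhl2 and 0.843 for Elf3, and between 0.861 and 0.931 for the other 6. At an unadjusted p under 0.05, 2 of the 8 were lower, Grhl2 (0.018) and Elf3 (0.025), while 3.37% of all genes were lower and 2.42% higher at that mark and 0% passed after adjustment. No factor had metastases and tumour bladders that failed to overlap, against 0.382% of all genes with every metastasis lower and 0.123% with every metastasis higher. In bulk tissue, fewer urothelial cells and less RNA per cell cannot be told apart.

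Metastases 1 and 2 lay under the tumour mean for 8 of 8 factors, metastasis 3 for 6 and metastasis 4 for 7. With only the 8 arrays that stood apart, the differences were -0.28 for Elf3, -0.24 for Ovol1, -0.16 for Grhl2, -0.02 for Pparg, -0.01 for Ehf, 0.05 for Klf5, 0.22 for Foxa1 and 0.27 for Grhl3. Without them, which leaves metastases 1 and 2 against tumour bladders 1, 2, 6 and 7, they were -1.67 for Ehf, -1.01 for Grhl2, -0.87 for Klf5, -0.85 for Grhl3, -0.70 for Elf3, -0.69 for Foxa1, -0.49 for Pparg and -0.25 for Ovol1, again with none past the threshold. The median over the factors was -0.77 without the arrays that stood apart and -0.02 within them. Tumour bladder 7 was the highest array, and the median difference over the factors was -0.21 without that array. Without it the single differences were -0.56 for Ehf, -0.22 for Klf5, -0.17 for Foxa1, -0.08 for Grhl3 and -0.04 for Pparg, while Grhl2 (-0.54), Elf3 (-0.39) and Ovol1 (-0.20) moved less. Leaving out a metastasis also moved the smaller differences, Foxa1 to -0.12 without metastasis 1 and -0.44 without metastasis 3, Pparg to -0.08 without metastasis 2 and -0.40 without metastasis 3, and Grhl3 to -0.18 without metastasis 1 and -0.51 without metastasis 4. Pparg differed by -0.41 without tumour bladder 6. The palbo metastasis, a single array with no test, lay under the tumour mean for 8 of 8 factors.

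Between metastases and normal bladders, 7 of the 8 factors had the lower mean in metastases, with a median difference of -0.51 against -0.01 over all genes, of which 52.7% had a lower mean. The sizes were -0.91 for Ehf, -0.63 for Klf5, -0.62 for Grhl3, -0.53 for Grhl2, -0.48 for Pparg, -0.45 for Elf3 and -0.17 for Foxa1, while Ovol1 differed by 0.01. Klf5 averaged 5.62 ± 0.39 in metastases and 6.26 ± 0.40 in normal bladders (SD, n = 4 and 5). Grhl3 averaged 5.51 ± 0.44 in metastases and 6.13 ± 0.21 in normal bladders. No factor passed the test, with adjusted p-values from 0.721 for Grhl2 and Elf3 to 0.991 for Ovol1, and 0% of all genes passed. At an unadjusted p under 0.05 only Grhl2 (0.047) was lower, where 3.81% of all genes were lower and 3.1% higher. For no factor did the 2 groups fail to overlap, against 1.79% of all genes with every metastasis lower and 1.06% with every metastasis higher.

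Within the 8 arrays that stood apart the differences between metastases and normal bladders were 0.02 for Ehf, -0.07 for Klf5, -0.17 for Grhl3, -0.22 for Grhl2, -0.26 for Elf3, 0.19 for Pparg, 0.11 for Foxa1 and 0.12 for Ovol1. Without them, metastases 1 and 2 differed from normal bladders 1 and 2 by -2.01 for Ehf, -1.34 for Pparg, -1.31 for Klf5, -1.13 for Grhl3, -0.88 for Grhl2, -0.67 for Elf3, -0.45 for Foxa1 and -0.12 for Ovol1. The median over the 8 factors was -1.003 without the arrays that stood apart and -0.02 within them. None of the 8 factors passed under either choice. Xist, an RNA made from the silenced X chromosome of females, stood at 5.44 and 5.73 in metastases 1 and 2 and at 11.7 in each of normal bladders 1 and 2, and the part of this in the differences was not tested.

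**Figure D2:**
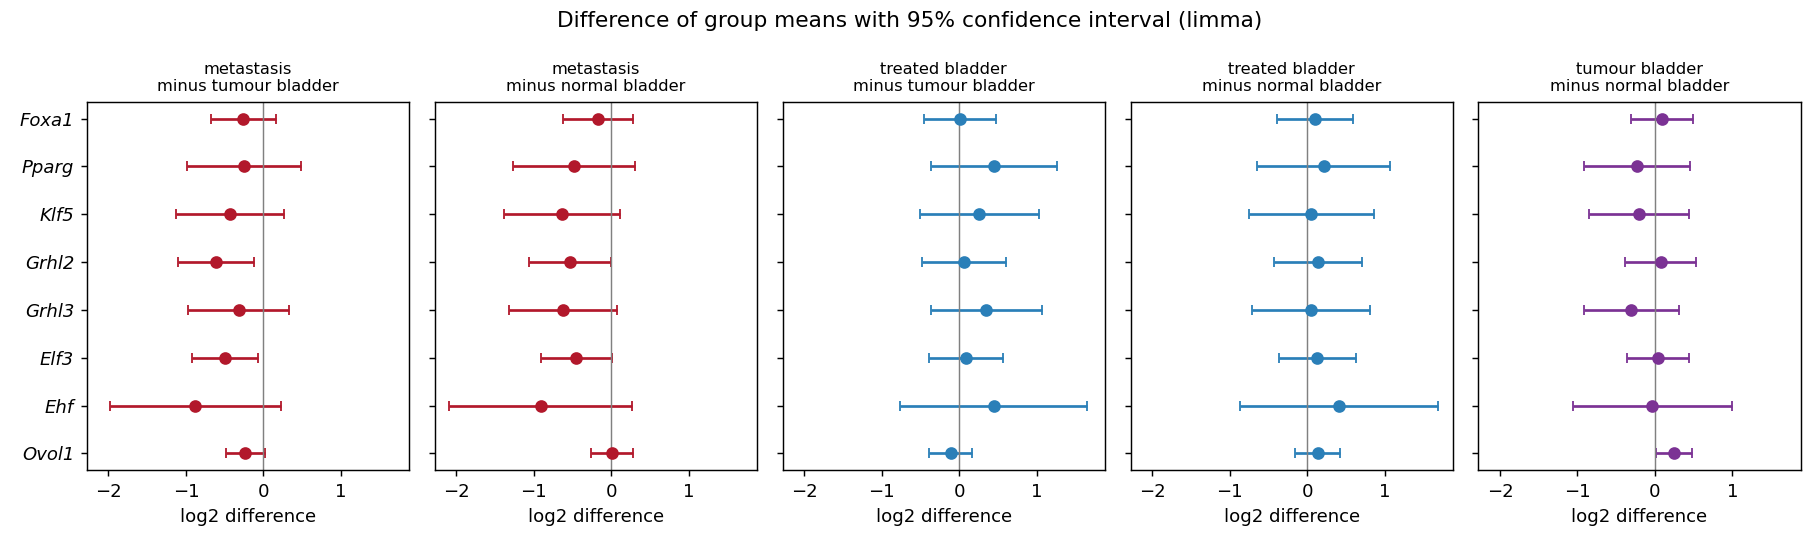
Points give the difference of group means in log2 units on the horizontal axis for each factor (rows) in each comparison (panels), and lines the 95% confidence interval from limma over all 20 arrays. The points for metastases lie left of 0 for all factors but Ovol1 against normal bladders, and all but 4 of the intervals cross 0.

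The comparison of treated with tumour bladders asks how the factors stood after palbociclib and CDDP. Means were higher in treated bladders for 7 of 8 factors, with a median difference of 0.18, and 57.4% of all genes had a lower mean in treated bladders. Pparg averaged 6.46 ± 0.56 in treated bladders and 6.01 ± 0.72 in tumour bladders (SD, n = 3 and 7), a difference of 0.45 with a 95% confidence interval of -0.36 to 1.26. Ehf averaged 7.04 ± 1.26 in treated bladders and 6.60 ± 1.05 in tumour bladders, also a difference of 0.45 (interval -0.76 to 1.66). The others differed by 0.35 (Grhl3), 0.26 (Klf5), 0.09 (Elf3), 0.07 (Grhl2), 0.01 (Foxa1) and -0.11 (Ovol1). None passed the adjusted threshold, as for 0% of all genes, none was under an unadjusted p of 0.05, where 0.159% of all genes were lower and 0.182% higher, and none had groups that failed to overlap (0.0564% of all genes lower and 0.073% higher in every treated bladder). Treated bladder 3 lay above the tumour mean for 8 of 8 factors, treated bladder 1 under it for 5 and treated bladder 2 under it for 7, and the median difference over the factors was -0.21 without treated bladder 3. It was 0.40 without treated bladder 2, 0.31 without treated bladder 1, 0.33 without tumour bladder 7, 0.11 without tumour bladder 6 and 0.10 without tumour bladder 2 or without the 8 arrays that stood apart.

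Against normal bladders the treated bladders had the higher mean for 8 of 8 factors, by 0.05 for Grhl3 to 0.41 for Ehf. The median difference was 0.14, against -0.009 over all genes, of which 53.3% had a lower mean in treated bladders. No factor passed the adjusted threshold (0% of all genes), no factor was under an unadjusted p of 0.05 (0.149% of all genes were lower and 0.209% higher), and the groups overlapped for each factor (0.318% and 0.332% of all genes did not overlap, lower and higher). Treated bladder 3 again lay above the normal mean for 8 of 8 factors, and without it the median difference was -0.17, against 0.29 without treated bladder 2 and 0.25 without treated bladder 1. Without the 8 arrays that stood apart the median was -0.01. In both comparisons of treated bladders the sign of the median thus turned without treated bladder 3. Xist stood at 10.1 in that array, against 7.10 and 6.04 in treated bladders 1 and 2, and at 5.43 to 7.19 in tumour bladders, and its part in the result was not tested.

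Tumour bladders differed from normal bladders in neither direction as a list. The mean was lower in tumour bladders for Grhl3 (-0.30), Pparg (-0.23), Klf5 (-0.21) and Ehf (-0.04) and higher for Ovol1 (0.25), Foxa1 (0.09), Grhl2 (0.07) and Elf3 (0.05). Ovol1, which averaged 4.54 ± 0.21 in tumour bladders and 4.29 ± 0.16 in normal bladders (SD, n = 7 and 5), was the only factor under an unadjusted p of 0.05 (0.042), where 2.39% of all genes were higher and 1.86% lower. All 8 adjusted p-values were 0.998, where 0% of all genes passed, and the groups overlapped for each factor, as for all but 0.0829% of genes in each direction. The spread within tumour bladders was wider than that within normal bladders for each of the 8 factors, with SDs of 0.21 to 1.05 in tumour bladders and 0.13 to 0.54 in normal bladders. On the arrays that stood apart the mean of the 8 factors kept to 5.44 to 5.59. Only normal bladders 1 and 2 lay outside that set, against tumour bladders 1, 2, 6 and 7, which limits this contrast. Tumour bladder 6 lay under the normal mean for 8 of 8 factors and tumour bladder 2 for 7, whereas tumour bladder 7 lay above it for 8 of 8. The median difference was 0.00 over all arrays, -0.21 without tumour bladder 7, -0.11 without tumour bladder 1 and 0.12 without tumour bladder 6, and it was -0.12 without the 8 arrays that stood apart and -0.02 within them. Without those 8 arrays, Xist stood at 5.43 to 5.86 in the tumour bladders left and at 11.7 in each normal bladder left. The part of Xist in this difference was not tested.

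Across the 12 arrays that did not stand apart, the factors moved together. Over the 28 pairs of factors Pearson's r ran from 0.709 to 0.981 with a median of 0.891 on those 12 arrays. On the 8 arrays that stood apart it ran from -0.749 to 0.533 with a median of -0.119, and over all 20 from 0.421 to 0.929 with a median of 0.794. The points share tissue composition, normalisation and array quality, so these values describe the arrays and were not tested. The 8 arrays were singled out in part by weak correlation of their deviations with those of other arrays. The contrast with the other 12 is therefore not independent of that choice.

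**Figure D3:**
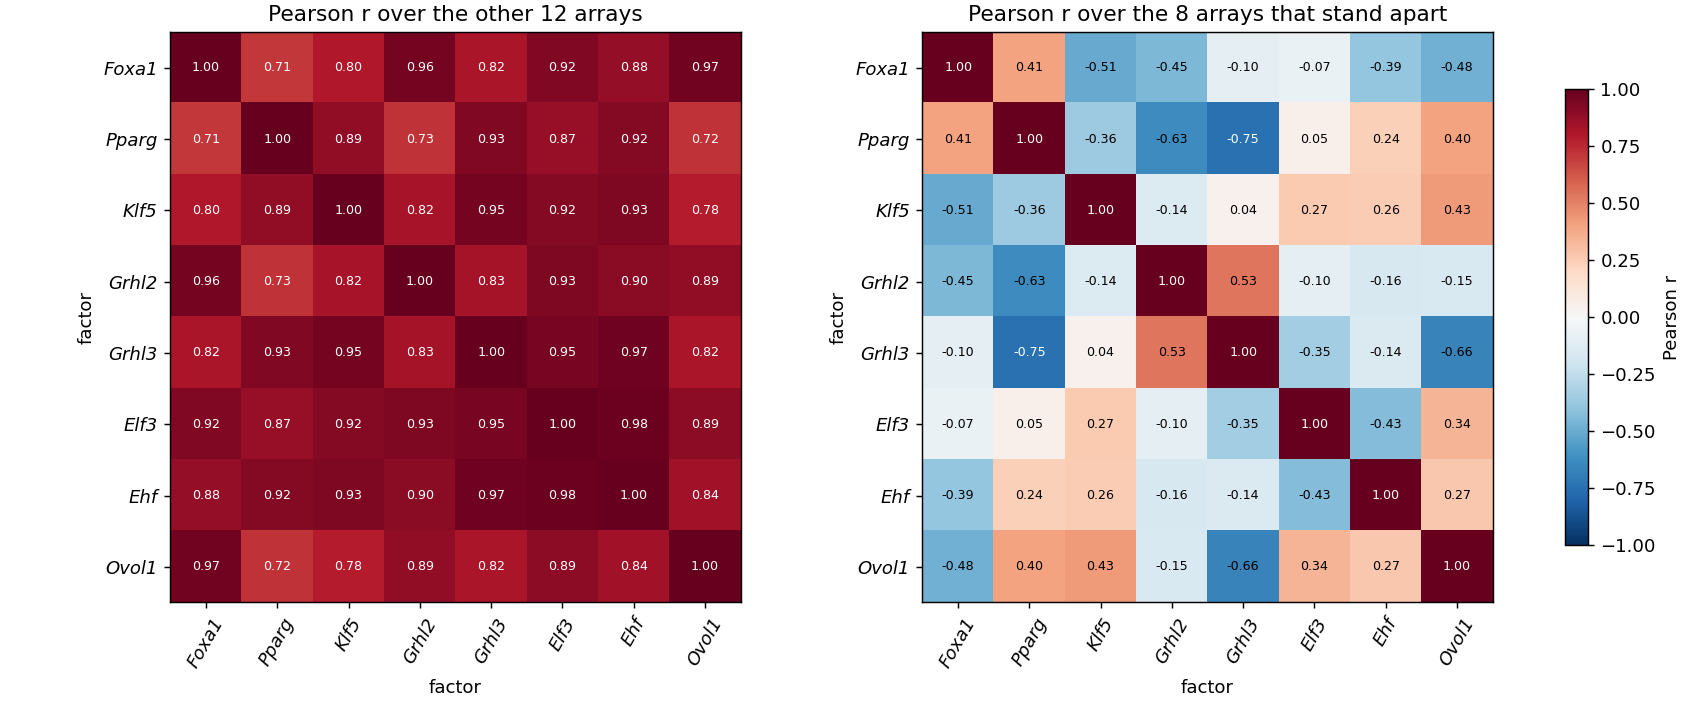
Colour and number give Pearson's r between each pair of factors (rows and columns) over the 12 other arrays on the left and over the 8 arrays that stood apart on the right. All pairs on the left are above 0.70, while on the right the signs are mixed.

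By likeness of pattern over the 20 arrays, the genes closest to the mean of the 8 factors were Esrp1 (r = 0.969), Ivl (0.969) and Krt5 (0.966). Left out of these rankings were the 8 factors, predicted and clone-named genes, small RNAs, receptor segments, and olfactory and vomeronasal receptor genes. Closest to the grainyhead factors were Dsp (0.949), Plekhh1 (0.931) and Plekhg6 (0.925) for Grhl2, and Spint1 (0.958), Osbpl3 (0.947) and Vsig2 (0.945) for Grhl3. For the ETS factors they were Tmem30b (0.957), Ctnnd2 (0.952) and Pkhd1 (0.910) for Elf3, and Rab27b (0.960), Tmprss2 (0.955) and Ivl (0.954) for Ehf. Pparg was nearest to Gsta4 (0.969), Atrn (0.957) and Sptssb (0.956), and Klf5 to Fam83b (0.979), Sprr2b (0.929) and Nipal2 (0.928). The dim factors had looser neighbours, namely Dapl1 (0.891), Itgb4 (0.884) and Ap1m2 (0.878) for Foxa1 and Tbc1d2 (0.781), Slc44a3 (0.771) and Phox2a (0.760) for Ovol1. On the 12 arrays that did not stand apart, the values for Ovol1 were 0.854 for Tbc1d2, 0.868 for Slc44a3 and 0.501 for Phox2a.

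The genes that the factors are known to govern or to be governed with were read from lists, of which no member passed the test in any of the 5 comparisons. Of 16 luminal structure genes, 13 had a lower mean in metastases than in tumour bladders, with a median difference of -0.60 that was -0.18 (12 of 16 lower) without tumour bladder 7. Cldn4, a tight junction claudin, averaged 5.20 ± 0.67 in metastases and 6.64 ± 1.03 in tumour bladders (difference -1.44, adjusted p = 0.841), and the uroplakin Upk1a averaged 6.77 ± 1.25 in metastases and 8.36 ± 2.83 in tumour bladders. Without tumour bladder 7 the difference of Upk1a was -0.62, against -1.59 with it. Upk1b, another uroplakin, averaged 10.26 ± 1.52 in metastases and 10.27 ± 2.36 in tumour bladders. As a check of the labels by these markers, the mean of the luminal structure list was 7.004 to 8.19 in treated bladders, 5.30 to 6.68 in metastases, 4.85 in the palbo metastasis, 5.49 to 9.46 in tumour bladders and 6.63 to 7.97 in normal bladders. Metastases thus overlapped both tumour and normal bladders, and these markers do not separate the labels. Metastases 3 and 4 had Upk1a at 8.12 and 7.51 and Upk3a at 7.06 and 7.13. All 15 epithelial adhesion and splicing genes had lower means in metastases than in tumour bladders, with a median of -0.22, which was -0.11 (14 of 15 lower) without metastasis 1. As a list mean they stood at 4.98 and 5.07 in metastases 1 and 2. Among the arrays that stood apart the order turned, with 5.59 and 5.52 in metastases 3 and 4. There, tumour bladders 3, 4 and 5 had 5.47, 5.47 and 5.41. Cdh1, the epithelial cadherin, averaged 5.81 ± 0.79 in metastases and 6.60 ± 0.79 in tumour bladders. It read 5.03 and 5.27 in metastases 1 and 2. In metastases 3 and 4 it read 6.69 and 6.24, against 6.29, 6.03 and 6.36 in tumour bladders 3, 4 and 5.

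Of 13 related epithelial factors, 10 had a lower mean in metastases than in tumour bladders (median -0.06), with Tbx3 at -0.44 and Gata6 at 0.68. Tbx3 differed by -0.29 without metastasis 1. Gata6 differed by 0.11 without metastasis 2, the array with the highest mean of the liver markers. Of 15 measured basal and squamous genes, 13 were lower (median -0.13). Trp63, the basal regulator, averaged 5.13 ± 0.30 in metastases and 5.65 ± 0.44 in tumour bladders, a difference of -0.52 with an adjusted p of 0.854, and Krt5 differed by -1.21. The basal list thus lay on the same side as the luminal factors and not opposite to them. Zeb1, which Grhl2 and Ovol1 repress, averaged 6.80 ± 0.25 in metastases and 6.89 ± 0.80 in tumour bladders, a difference of -0.09. Of 8 measured mesenchymal genes, 5 had higher means in metastases (median 0.06), led by Cdh2, the neural cadherin, at 6.47 ± 0.62 in metastases and 5.79 ± 0.31 in tumour bladders. Cdh2 read 7.09 and 6.91 in metastases 1 and 2. In metastases 3 and 4 it read 6.01 and 5.88, against 5.89, 5.95 and 5.82 in tumour bladders 3, 4 and 5. Of 6 measured Pparg lipid targets, 4 had higher means in metastases (median 0.18), as did all 7 measured adipocyte markers (median 0.13), medians that were 0.07 and -0.0026 without metastasis 1, while the mean of Pparg itself was lower.

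Markers of some other cell types moved with the mean of the 8 factors and those of others did not, and their part in the results was not tested. All 8 smooth muscle markers had lower means in metastases than in tumour bladders (median -0.73), but without tumour bladder 7 the median was -0.09 with 6 of 8 lower. Their level per array, as a mean over the list, was 5.70 to 6.93 in metastases and 4.91 in the palbo metastasis, against 5.63 to 10.27 in tumour bladders. All 6 macrophage markers had higher means in metastases (median 0.74, and 0.29 without metastasis 1), at 6.14 to 8.45 in metastases and 8.004 in the palbo metastasis, against 5.57 to 6.93 in tumour bladders. The higher values were those of metastases 1 and 2, at 8.45 and 7.45. Metastases 3 and 4 had the list at 6.40 and 6.14, against 6.38, 6.26 and 6.46 in tumour bladders 3, 4 and 5. Over the 20 arrays the mean of the 8 factors correlated with the list means at r = 0.972 for epithelial adhesion, 0.923 for luminal structure, 0.869 for related factors, 0.857 for basal genes, 0.855 for smooth muscle, -0.750 for macrophages, -0.467 for T cells, -0.410 for mesenchymal genes and -0.405 for fibroblasts. It was weak for skeletal muscle (0.124), lung epithelium (0.050), adipocytes (0.039), Pparg lipid targets (-0.039) and male accessory glands (-0.135). In treated against tumour bladders all 8 smooth muscle markers had higher means in treated bladders (median 0.88), as did 15 of 16 luminal structure genes (median 0.53), and all 6 macrophage markers had lower means (median -0.41). Without treated bladder 3 these medians were 0.31, 0.14 and -0.20. Without tumour bladder 7 they were 1.53 for smooth muscle and 0.89 for luminal structure. The fibroblast median was -0.31 in treated against tumour bladders, with 1 of 5 genes higher. The basal median of -0.04, with 7 of 15 genes higher, lay near the median of -0.02 over all genes.

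**Figure D4:**
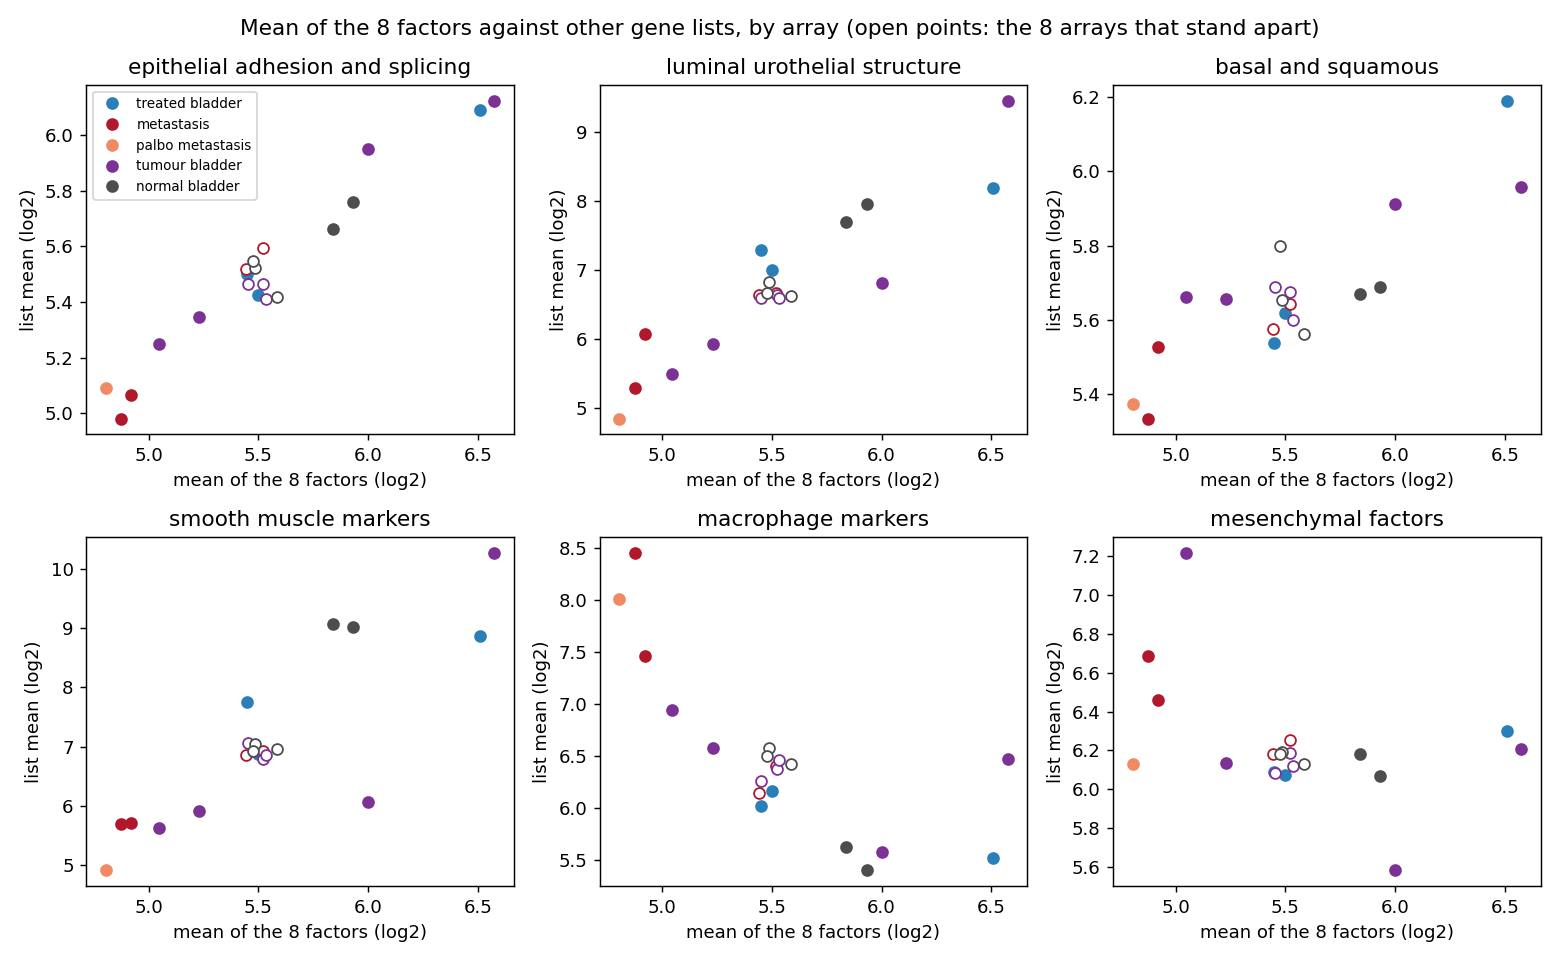
Each point is 1 array, with the mean log2 level of the 8 factors on the horizontal axis and the mean log2 level of a gene list on the vertical axis; open points are the 8 arrays that stood apart. Adhesion, luminal structure, basal and smooth muscle lists climb with the factors, the macrophage list declines, and the open points sit in one cluster near a factor mean of 5.5.

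The remaining lists gave the tissue background of the factors. In metastases against tumour bladders, median differences were 0.07 for T cell markers (3 of 6 higher), -0.05 for fibroblast markers (2 of 5 higher), -0.14 for lung epithelium (0 of 7 higher), 0.64 for liver (3 of 4 higher, and -0.06 without metastasis 2), -0.21 for male accessory glands (0 of 4 higher) and -0.39 for skeletal muscle (0 of 4 higher). The liver list reached a mean of 7.60 in metastasis 2, against at most 5.41 in a tumour bladder, and no luminal factor stood out on that array beyond the low levels given above. The correlation of the mean of the 8 factors with the liver list was -0.211 over the 20 arrays.

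Set against normal bladders, metastases had lower means for 14 of 16 luminal structure genes (median -1.01), 13 of 15 adhesion genes (median -0.27) and 10 of 13 related factors (median -0.08). Without metastasis 1 the luminal structure median was -0.65. Among the arrays that stood apart, the luminal structure list read 6.68 and 6.65 in metastases and 6.63, 6.83 and 6.68 in normal bladders. The adhesion list on these arrays read 5.59 and 5.52 in metastases and 5.42, 5.52 and 5.55 in normal bladders. Cldn4 (-1.57), Krt5 (-1.53), Foxq1 (-0.74), the smooth muscle myosin Myh11 (-2.17) and the T cell gene Cd4 (-0.24) were lower in every metastasis than in any normal bladder, with adjusted p-values between 0.717 and 0.742. Each was the only such gene of its list, and 1.79% of all genes were lower in this way and 1.06% higher. The T cell list as a whole did not follow Cd4, with 4 of 6 measured markers higher in metastases than in normal bladders (median 0.07). Tumour bladders had lower means than normal bladders for 14 of 16 luminal structure genes (median -0.27) and all 8 smooth muscle markers (median -0.85), medians that were -0.64 and -1.53 without tumour bladder 7, where the luminal factors were split evenly in direction. Normal bladders 1 and 2 stood at 7.71 and 7.97 for luminal structure and 9.07 and 9.02 for smooth muscle. Normal bladders 4, 5 and 6 stood at 6.63, 6.83 and 6.68 for luminal structure and 6.96, 7.04 and 6.93 for smooth muscle. For the same lists, tumour bladders 3, 4 and 5 stood close to these, at 6.64, 6.60 and 6.60 and at 6.80, 7.06 and 6.86. Treated bladders had higher means than normal bladders for 15 of 16 luminal structure genes (median 0.24) and 14 of 15 basal genes (median 0.09). Without treated bladder 3 these medians were -0.06 and -0.11, and without the 8 arrays that stood apart they were -0.36 and 0.05.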

How the data were processed

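RNA was isolated with a kit for FFPE (formalin-fixed, paraffin-embedded) tissue, and biotin-labelled sense-strand DNA was hybridised, per the labels' protocols. The deposited values are log2 expression levels that the authors made with RMA in Affymetrix Expression Console, per the submitters' processing notes, without versions. No file states the logarithm's base; 2 was assumed, as RMA uses it. Arrays have no depth, so their number limits the precision. Array medians were 5.11 to 5.48.

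Of 65956 rows, the 30604 to which the platform annotation gives exactly 1 symbol were used, and of several rows of a gene the one with the highest mean was kept, which left 30142 genes. The luminal factors and the gene lists were chosen with earlier results of these data known. The 15 lists beside the factors held luminal structure, related factors, adhesion and splicing, basal, mesenchymal, Pparg lipid target, adipocyte, T cell, smooth muscle, fibroblast, macrophage, lung, liver, male accessory gland and skeletal muscle genes. Besides the factors, Zeb1 and Trp63, the rule for naming genes took the 3 members of a list with the highest mean, the member with the smallest p in each comparison and the 3 genes most like each factor. Engineered alleles other than those named are not reported here.

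Groups were taken from the sample titles. All 20 arrays entered 1 linear model with 5 groups (limma 3.58.1, R 4.3.3, moderated variances). Each of 5 comparisons got a 2-sided test, Benjamini-Hochberg adjusted across the genes and called at 0.05; the lone palbo metastasis was not tested. The procedure was tested on simulated data. Alternatives were a fit on the 2 groups alone, array weights, removal of genes under the 40th percentile, renewed quantile normalisation, centring on array medians, averaging of the rows that share a gene, a replicate-number block, inclusion of the palbo metastasis among the metastases, each array left out in turn, and the 8 arrays that stood apart removed, modelled as a term or, chosen after the data were seen, kept alone. The lists were also read with arrays left out, likewise chosen after the data were seen. Same-numbered arrays did not clearly deviate together (r from -0.594 to 0.322 over the pairs of the 5 comparisons). So few pairs cannot exclude a pairing of the samples. Some differently numbered arrays had higher values, metastasis 1 with tumour bladder 6 (0.502) and tumour bladder 7 with normal bladder 2 (0.565). Whether any arrays share a mouse is not given. Promoters were searched with Python 3.11.15.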

Additional observations from a re-analysis of the deposited data

Results flagged for a closer look

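In groups of 4 to 10 arrays, the highest or lowest value of each factor and each list mean was set against the rest by Dixon's ratio of its gap to the group's range. None of the 8 factors had an array beyond the 95% critical value. Of 72 groups tested, 7 did, and chance gives about 1 in 20.

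The luminal structure list stood at 9.46 and the smooth muscle list at 10.27 in tumour bladder 7, each far above the other tumour bladders; this is also the array with the highest mean of the 8 factors (6.57). The mesenchymal list reached 7.22 in tumour bladder 6, an array with a low mean of the 8 factors (5.04). The Pparg lipid target list was at 7.29 in metastasis 1, where Pparg was at 5.73. The fibroblast list was at 8.15 in metastasis 2. The remaining such values were the T cell list at 5.44 in normal bladder 6 and the male accessory gland list at 4.85 in metastasis 3, both on arrays that stood apart.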

How the results depend on the processing

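No factor passed in any comparison under any alternative, and the 8 lower means of metastases against tumour bladders kept their sign except within the 8 arrays that stood apart. Of 790 differences of a factor under an alternative, 82 changed sign. The count of genes past the threshold was 0 over all 20 arrays, 3 without the 8 arrays that stood apart for metastases against tumour bladders and 3 against normal bladders, and 1 against normal bladders when only those 2 groups were fitted; none of these is a luminal factor, and the fewer arrays are part of these settings. The median difference of the factors between metastases and normal bladders was -1.003 without the 8 arrays and -0.024 within them. With the replicate number as a block, the medians were -0.27 for metastases against tumour bladders and -0.73 against normal bladders, 0.25 for treated against tumour bladders, -0.041 for treated against normal bladders and -0.32 for tumour against normal bladders. With array weights the medians were -0.075 for treated against tumour bladders, -0.15 for treated against normal bladders and -0.15 for tumour against normal bladders, each below 0 where the unweighted median was above it, and -0.36 and -0.63 for metastases against tumour and normal bladders. The sign of metastases minus tumour bladders turned with only the 8 arrays that stood apart for Foxa1 (0.22), Grhl3 (0.27) and Klf5 (0.053). The sign of metastases minus normal bladders turned with the replicate number as a block for Ovol1 (-0.075), without those 8 arrays for Ovol1 (-0.12), with the palbo metastasis counted as a metastasis for Ovol1 (-0.025), with only the 8 arrays that stood apart for Foxa1 (0.11), Pparg (0.19) and Ehf (0.024). The sign of treated bladders minus tumour bladders turned with array weights for Foxa1 (-0.17), Grhl2 (-0.12), Elf3 (-0.070) and Ehf (-0.080), after renewed quantile normalisation for Grhl2 (-0.069), without those 8 arrays for Foxa1 (-0.14) and Grhl2 (-0.066). The sign of treated bladders minus normal bladders turned with array weights for Foxa1 (-0.11), Pparg (-0.37), Grhl2 (-0.13), Grhl3 (-0.16), Elf3 (-0.072), Klf5 (-0.30) and Ehf (-0.36), after renewed quantile normalisation for Grhl3 (-0.020) and Klf5 (-0.050), with the replicate number as a block for Foxa1 (-0.023), Pparg (-0.18), Grhl2 (-0.024), Grhl3 (-0.11), Elf3 (-0.034), Klf5 (-0.10) and Ehf (-0.048), without those 8 arrays for Pparg (-0.37), Grhl3 (-0.11), Klf5 (-0.29) and Ehf (-0.085), with a term for them for Grhl3 (-0.0033) and Klf5 (-0.016). The sign of tumour bladders minus normal bladders turned with array weights for Grhl2 (-0.0092) and Elf3 (-0.0026), after renewed quantile normalisation for Ehf (0.017), with the replicate number as a block for Foxa1 (-0.053), Grhl2 (-0.068) and Elf3 (-0.14), with only the 8 arrays that stood apart for Foxa1 (-0.11), Pparg (0.21), Grhl2 (-0.056) and Ehf (0.038). With 1 array left out at a time, differences that crossed 0 ranged, for metastases minus normal bladders, over Ovol1 -0.048 to 0.069. For treated minus tumour bladders the ranges were Foxa1 -0.21 to 0.16, Grhl2 -0.29 to 0.27, Elf3 -0.17 to 0.23, Klf5 -0.22 to 0.61 and Ehf -0.28 to 0.82. For treated minus normal bladders they were Foxa1 -0.12 to 0.25, Pparg -0.10 to 0.44, Grhl2 -0.22 to 0.34, Grhl3 -0.26 to 0.27, Elf3 -0.12 to 0.27, Klf5 -0.42 to 0.41 and Ehf -0.32 to 0.78. For tumour minus normal bladders they were Grhl2 -0.051 to 0.14, Elf3 -0.068 to 0.13 and Ehf -0.35 to 0.20. For metastases minus tumour bladders no factor crossed 0, with ranges of Foxa1 -0.44 to -0.12, Pparg -0.41 to -0.041, Grhl2 -0.74 to -0.45, Grhl3 -0.51 to -0.078, Elf3 -0.59 to -0.39, Klf5 -0.54 to -0.22, Ehf -1.1 to -0.56 and Ovol1 -0.29 to -0.18. The median difference ranged from -0.51 to -0.21 for metastases against tumour bladders, -0.61 to -0.44 against normal bladders, -0.21 to 0.40 for treated against tumour bladders, -0.17 to 0.29 against normal bladders and -0.21 to 0.12 for tumour against normal bladders. The cause of these changes was not tested.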
